A study of Mus musculus with 3 samples.

Results

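Interferon-response T cells are T cells in which genes switched on by interferon are read together. In the sciatic nerves studied here they were taken as cells with at least 1 UMI (unique molecular identifier, which counts 1 captured transcript) of Cd3d, Cd3e and Cd3g together and at least 1 UMI of at least 3 of the 6 interferon-stimulated genes Ifit1, Ifit3, Ifit3b, Rsad2, Isg15 and Usp18. They also had 0 UMIs of the B cell gene Cd79a, at most 1 UMI of the macrophage genes C1qa, C1qb and C1qc together, and 0 UMIs of the division genes Mki67 and Top2a. The rule found 335 cells, 178, 128 and 29 in libraries 1 to 3, among 7132 T cells that met its other parts and 13770 immune cells in all.

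All were CD45+ immune cells, sorted after perfusion and enzymatic digestion from the sciatic nerve of NOD.AireGW/+ mice with neuropathy. Such animals have 1 normal and 1 dominantly acting mutant copy of Aire, the gene by which the thymus displays tissue antigens to developing T cells, on the NOD background, which is prone to autoimmunity. All 3 libraries belonged to this 1 group, libraries 1 and 2 from 1 mouse each and library 3 from 2 mice pooled and not told apart, so every comparison was made between cells of the same library, and no effect of genotype or disease was tested. The libraries held 3926, 8311 and 1533 cells, and interferon-response T cells had a median of 6044, 3366.5 and 2254 UMIs against 3311, 2606 and 1699 in the other T cells, meaning those with 0 to 2 of the 6 genes.

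Interferons are secreted proteins that warn cells of infection or tissue damage. Type I interferons bind the Ifnar1 and Ifnar2 receptor chains and act through a complex that includes Stat2 and Irf9 and binds the interferon-stimulated response element in gene promoters, whereas interferon gamma binds Ifngr1 and Ifngr2 and acts through another motif, the gamma-activated site. The genes they switch on make sensors of foreign RNA and DNA, proteins that block viral growth, Isg15, a small protein that is attached to other proteins, and Usp18, which removes Isg15 and dampens the receptor.

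Stretches of 5 promoters of the rule genes and that of Bst2, a membrane tether of viruses, are shown because the letters of the response element, GAAANNGAAA or its reverse complement TTTCNNTTTC, occur in each. The sequences are from RefSeq (build GRCm38.p6, the same assembly as mm10), run 5′ to 3′ on the strand of the gene from 200 to 31 bases before its start, and carry the motif in capitals. Distances are from the RefSeq start. Gene positions given further below are from the GENCODE annotation, whose starts differ by some bases for genes such as Ifit1 and Ifit3b.

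Isg15: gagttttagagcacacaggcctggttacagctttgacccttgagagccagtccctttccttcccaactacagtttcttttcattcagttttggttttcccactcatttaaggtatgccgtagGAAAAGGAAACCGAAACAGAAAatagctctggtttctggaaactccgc
Ifit1: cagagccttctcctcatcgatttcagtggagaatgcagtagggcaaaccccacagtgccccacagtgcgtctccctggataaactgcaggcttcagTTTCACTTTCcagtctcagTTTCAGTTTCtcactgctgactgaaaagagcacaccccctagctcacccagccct
Ifit3: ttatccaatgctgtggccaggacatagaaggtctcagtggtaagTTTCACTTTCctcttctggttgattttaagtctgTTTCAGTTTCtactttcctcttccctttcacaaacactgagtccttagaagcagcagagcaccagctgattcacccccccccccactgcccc
Ifit3b: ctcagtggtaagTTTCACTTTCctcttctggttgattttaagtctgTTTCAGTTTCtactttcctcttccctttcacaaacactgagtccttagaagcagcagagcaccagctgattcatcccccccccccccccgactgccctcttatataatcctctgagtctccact
Rsad2: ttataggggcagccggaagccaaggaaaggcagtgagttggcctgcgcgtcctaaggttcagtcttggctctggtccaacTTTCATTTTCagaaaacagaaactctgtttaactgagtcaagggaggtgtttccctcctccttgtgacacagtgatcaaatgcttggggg
Bst2: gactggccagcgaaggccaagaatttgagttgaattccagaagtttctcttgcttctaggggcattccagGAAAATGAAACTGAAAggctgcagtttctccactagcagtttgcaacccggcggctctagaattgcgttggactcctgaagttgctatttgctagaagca

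The Isg15 stretch (chr4:156200849-156201018, minus strand) held 3 overlapping copies 78 to 57 bases before the start. The Ifit3 stretch (chr19:34583329-34583498, plus strand) and the Ifit3b stretch (chr19:34607757-34607926, plus strand) carried the same pair of matches, TTTCACTTTC and TTTCAGTTTC, beginning 156 and 122 bases before the start of Ifit3 and 188 and 154 bases before that of Ifit3b. Ifit1 (chr19:34640689-34640858, plus strand) held that pair as well, Bst2 (chr8:71537503-71537672, minus strand) held 2 overlapping copies, and Rsad2 (chr12:26456483-26456652, minus strand) held 1. Usp18 had no entry in the promoter table. Over the 250 bases before the start, with both strands read and overlaps allowed, 3.46% of the 27025 genes with a promoter held GAAANNGAAA and 8.13% held TTCNNNGAA, the letters of the gamma-activated site. Both motifs can overlap each other.

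The 6 interferon genes chose the cells, so their values are given as a description with no test. Isg15 (chromosome 4, 156199424 to 156200818) had a UMI in 96.1%, 96.9% and 100% of interferon-response T cells of libraries 1 to 3 and in 24.5%, 19.8% and 27.5% of other T cells. Ifit1 (chromosome 19, 34640871 to 34650009), which binds foreign RNA, had one in 74.7%, 82.8% and 82.8% against 4.99%, 1.96% and 2.01%. Isg15 was therefore also common outside the rule, and Ifit1 was not.

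Ifit3 was found in 78.1%, 79.7% and 93.1% of the cells, and its neighbour Ifit3b, 34607970 to 34613401 on the same chromosome, in 38.8%, 40.6% and 44.8%. Both lie in 1 gene cluster and are close copies, so the split of reads between them is uncertain. When they counted as 1 gene, 173, 122 and 27 cells still met the rule. Rsad2, which makes an antiviral nucleotide, was found in 47.8%, 39.8% and 34.5%, and Usp18 in 59.0%, 38.3% and 34.5%. The median cell carried 10, 10.5 and 6 UMIs of the 6 genes together, and 16, 5 and 3 cells carried all 6 genes.

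Cells just inside the rule were not always deeper than cells just outside it. In library 1 the 79 cells with exactly 3 genes had a median of 5993 UMIs and the 164 cells with exactly 2 had 4981. In library 2 the values were 3439.5 for 62 cells and 4500 for 106, and in library 3 they were 1804.5 for 14 cells and 1978 for 41. Their median UMIs of the 6 genes were 6 against 4, 8 against 3 and 5 against 3.

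Genes outside the rule were higher in sum the more rule genes a T cell held. Among 63 held-out interferon-stimulated genes (the sensors, antiviral effectors and conjugation enzymes below), the summed level in library 2 was 4695 CPM (UMIs scaled to a common library total of 1000000) in T cells with 0 rule genes, 12066 with 2, 16044 with 3 and 44347 with 6. In library 3 it went from 4356 with 0 to 13602 with 2, 21912 with 3 and 43792 with 6. In library 1 the same sums were 5510, 13442, 15679 and 23504. The sums changed by degrees, with no gap at the threshold of 3 genes, so the rule cuts a range of levels.

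**Figure D1:**
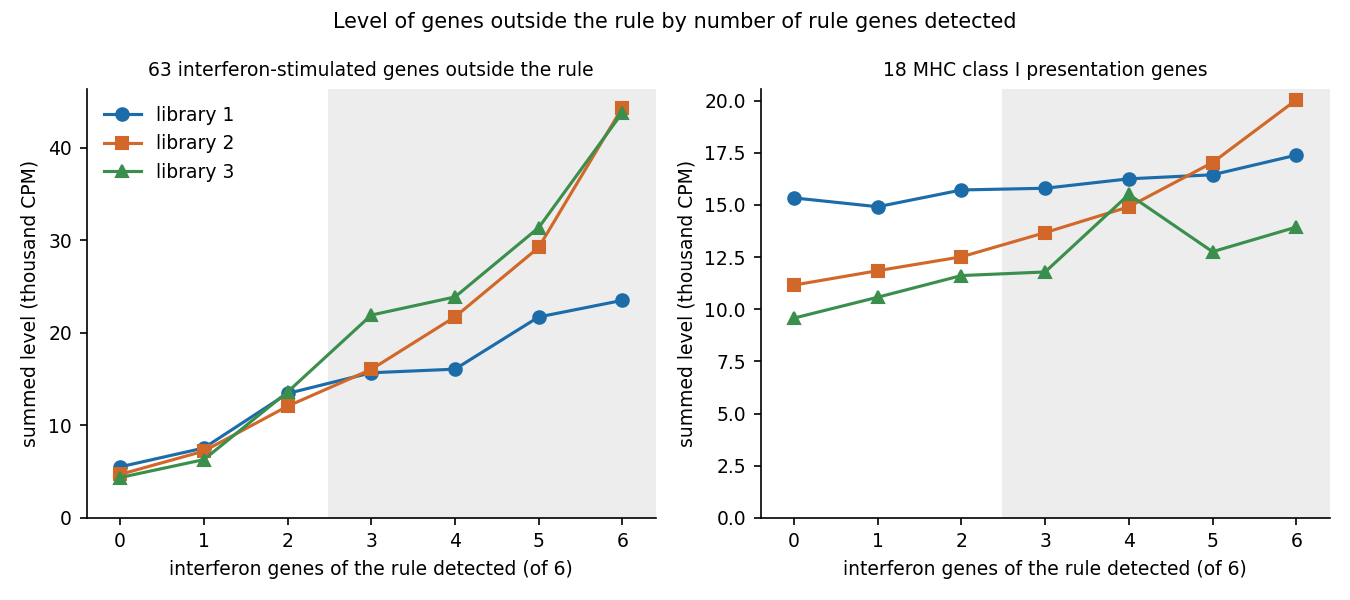
Summed level in CPM divided by 1000 (vertical axis) of 63 held-out interferon-stimulated genes (left) and 18 MHC class I presentation genes (right) in T cells grouped by how many of the 6 rule genes had a UMI (horizontal axis), with 1 line per library and the cells that met the rule shaded. The interferon-stimulated genes climbed in all 3 libraries, up to 44347 CPM in library 2, and the MHC class I genes rose at every step in library 2 (11156 to 20029 CPM), dipped first in library 1 (15333, 14909 and at last 17383 CPM) and peaked at 4 genes in library 3 (15498 CPM, 13934 CPM at 6).

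Fewer T cells met the rule at a common depth than as deposited. Library 1 had the highest share, 7.23%, with an exact 95% interval of 6.24 to 8.33. Library 2 had 3.66% (3.06 to 4.34), and library 3 had 2.47% (1.66 to 3.53). When the interferon genes were read after thinning every cell to 1000 UMIs, the shares were 1.79% (1.27 to 2.45), 1.40% (1.03 to 1.85) and 1.34% (0.713 to 2.27), and all 3 intervals overlapped. Thinning left out 343, 135 and 200 T cells with fewer UMIs. Intervals cover counting error only.

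Other immune cells met the interferon part of the rule too. Dividing T cells, with at least 1 UMI of Mki67 or Top2a, did so in 9.37%, 5.02% and 7.50% of cells as deposited and in 1.22%, 0.726% and 2.82% after thinning, with median depths of 5368, 8217 and 2342 UMIs before it. Of the 1812 macrophages of library 2, 4.91% (3.96 to 6.01) met it as deposited, at a median of 7463.5 UMIs, and 0.337% (0.124 to 0.733) after thinning. B cells met it in 2 of 236, 3 of 368 and 0 of 81 cells as deposited, the last of which allows up to 3.70% by a limit of 3 counts, and in 0.452%, 0.272% and 0 of 73 cells after thinning, which allows up to 4.11%.

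**Figure D2:**
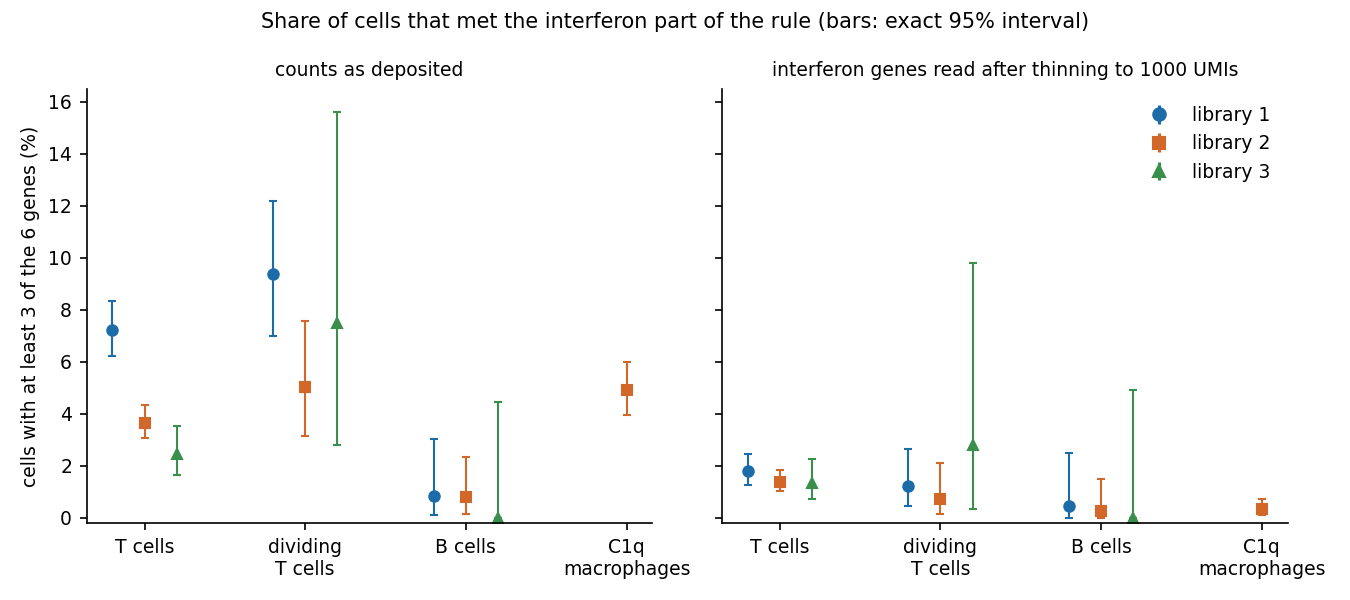
Percentage of cells with at least 3 of the 6 interferon genes (vertical axis) in 4 cell classes, as deposited (left) and with the interferon genes read after thinning to 1000 UMIs (right), as points per library with exact 95% intervals and classes of fewer than 50 cells left out. The T cell shares of 7.23%, 3.66% and 2.47% drew together at 1.79%, 1.40% and 1.34%.

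The label of T cells was checked with genes outside the rule. Trac, the constant part of the T cell receptor alpha chain, stood at 217, 214 and 211 CPM in interferon-response T cells of libraries 1 to 3. In other T cells it stood at 229, 228 and 223 CPM. None of the 9 T cell lineage genes passed the main test against other T cells. In the fit within CD4 cells described below, 2 of the 9 were lower, at a median log2 difference of -0.38. Within CD8 cells 0 passed, and without cells of a wider list of other lineages 1 was lower. As CPM of all UMIs, without TMM scaling, B cell markers reached 197, 104 and 13.0 CPM against 159, 108 and 67.5 CPM, with Cd22 at 0 in all 3 libraries. The 9 macrophage and monocyte markers summed to 2992, 2542 and 313 CPM against 1079, 1021 and 473 CPM, so they were higher in the interferon-response cells of libraries 1 and 2 and not in library 3.

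Lyz2, the lysozyme of myeloid cells, had UMIs in 35 of 178, 35 of 128 and 0 of 29 interferon-response cells. Csf1r, Apoe, Fcgr1, Ms4a7 and Adgre1 were also at 0 in library 3, which allows up to 3 UMIs of each among the 76665 UMIs of its cells. Of 7 markers tested, 6 were higher (Lyz2, Csf1r, Apoe, Fcgr1, Cd68 and Plac8) and 0 lower. Without cells that held UMIs of other lineages, Fcgr1, Cd68 and Plac8 still passed and Apoe could not be tested. Lyz2 and Csf1r are among the genes by which those cells were left out, so they were at 0 there by design. The 7 dendritic cell markers summed to 243, 104 and 0 CPM against 164, 132 and 13.1 CPM, and 1 of 6 tested, Xcr1, was higher. Neutrophil markers summed to 70.1, 9.31 and 13.0 CPM, and in the other T cells to 1.88, 2.17 and 1649 CPM. Schwann cell markers were carried by Mbp, with Pmp22, Prx and Sox10 at 0, and red blood cell markers reached 0, 0 and 13.0 CPM, which is 1 UMI.

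No doublet caller was run, and the part of macrophage RNA or of 2 cells in 1 droplet in the results was not tested as such. The main comparison was therefore also made without any cell that held a UMI of 7 B cell and myeloid genes. These were Cd79b, Ms4a1, Lyz2, Csf1r and the C1q genes of the rule, C1qa, C1qb and C1qc. A further alternative, chosen after seeing the data, left out any cell with a UMI of a wider list of 26 such genes. The first left 132, 72 and 29 interferon-response cells of libraries 1 to 3, and the second 42, 14 and 15. Results with the wider list rest on these few cells. Library pairs shared 36, 7 and 14 cell barcodes, none of them between interferon-response cells.

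To ask what else set these cells apart, UMIs were summed per library and state and compared with the quasi-likelihood test of edgeR, with the library as a block and without the 15 rule genes. Of 9151 genes tested, 630 (6.88%) passed an adjusted p of 0.05, 515 higher (5.63%) and 115 lower (1.26%) in interferon-response T cells. The cells were picked by genes that are switched on together with many of those tested, so the calls describe which genes went with the 6. A call does not mean that the gene had the same direction in all 3 libraries. Levels below are CPM after TMM scaling for libraries 1 to 3 in turn, and 1 UMI in the 29 cells of library 3 is about 13.2 CPM.

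Antiviral effectors were higher without exception among those tested. All 43 of the 43 tested (of 48 in the files) passed, with a median log2 difference of 1.98 against -0.05 over all genes. Of these, 41 were higher in all 3 libraries, the exceptions being Ifitm2 and Ifi207. The share of all genes tested that were higher in all 3 libraries, or did not overlap between groups, was not counted. Rtp4, a chaperone that restricts viruses, stood at 281, 359 and 554 CPM in interferon-response T cells and at 57.3, 34.7 and 62.9 CPM in other T cells. Its log2 difference was 2.87 ± 0.16 (SE from the edgeR fit to 3 libraries, edgeR adjusted p = 9.43e-67). For log2 differences here and below, ± gives this SE, which does not measure the spread between the values of the 3 libraries. The groups did not overlap. In the fit without cells of the wider list of other lineages, 31 of 35 tested effectors were higher and 1 was lower, Ifitm2, a membrane protein that blocks virus entry (-1.88, edgeR adjusted p = 0.0141), which in the main comparison stood at 368, 290 and 79.1 CPM against 161, 204 and 179 CPM (0.64 ± 0.16).

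Cmpk2, a mitochondrial nucleotide kinase that lies beside Rsad2, stood at 47.6, 74.2 and 92.3 CPM against 4.01, 2.93 and 2.82 CPM, a log2 difference of 4.15 ± 0.31 (edgeR adjusted p = 6.82e-39). Oasl1, of the oligoadenylate synthetase family, stood at 37.9, 40.5 and 13.2 CPM against 2.74, 1.46 and 2.35 CPM (4.08 ± 0.40, edgeR adjusted p = 1.13e-22). Its library 3 value is 1 UMI. Oasl2 of the same family differed by 3.39 ± 0.24 and Ifit2, the neighbour of Ifit3, by 3.28 ± 0.22.

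Other effectors differed by less on the log2 scale. Ifi27l2a, a small interferon-inducible protein, stood at 3652, 5807 and 9839 CPM against 1438, 1379 and 2109 CPM, a log2 difference of 1.88 ± 0.12 (edgeR adjusted p = 5.45e-48). Ly6a, the surface protein Sca-1, stood at 4197, 6586 and 5684 CPM against 1681, 1754 and 1391 CPM (1.75 ± 0.12). Bst2 stood at 769, 946 and 1319 CPM against 303, 307 and 197 CPM (1.82 ± 0.15), and Isg20, a nuclease that degrades viral RNA, at 203, 538 and 514 CPM against 61.7, 68.7 and 62.9 CPM (2.49 ± 0.16). For each of these 4 genes the lowest interferon-response library lay above the highest other library.

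Sensors of RNA and DNA rose too, though not every member of the list. Of 10 tested, 6 were higher and 0 lower, with a median log2 difference of 1.55. Ifih1, the sensor of long double-stranded RNA, stood at 75.8, 54.0 and 92.3 CPM against 10.9, 7.15 and 5.16 CPM (2.95 ± 0.26, edgeR adjusted p = 2.41e-28). Zbp1, which senses Z-form nucleic acids and can start cell death, stood at 377, 533 and 778 CPM against 98.8, 105 and 109 CPM (2.30 ± 0.16). Dhx58, Eif2ak2 and Ddx58 differed by 2.53 ± 0.25, 2.16 ± 0.25 and 1.93 ± 0.17.

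The sixth, the adaptor Myd88, stood at 80.3, 91.1 and 0 CPM against 46.3, 48.9 and 43.2 CPM (0.73 ± 0.18, edgeR adjusted p = 0.00174) and overlapped between the groups. It did not pass without cells that held UMIs of other lineages (adjusted p = 0.978), a fit in which 5 of 8 tested sensors were higher. All 4 conjugation enzymes of Isg15 were higher, at a median of 1.53. That count was 2 with no replicate block and 1 without cells that held UMIs of a wider list of other lineages. The conjugating enzyme Ube2l6 differed by 2.09 ± 0.19, the ligase Herc6 by 1.88 ± 0.19, the activating enzyme Uba7 by 1.18 ± 0.21 and the ligase Trim25 by 1.09 ± 0.22.

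Some transcription factors of the pathway were higher. Of 10 tested, 5 were higher and 0 lower, with a median of 0.50. The 5 became 3 without library 1, 3 with no replicate block and 2 without cells of the wider list of other lineages, and 1 was lower with at least 4 rule genes, with matched depth, after thinning or without cells of other lineages. Irf7, which amplifies type I interferon production, stood at 567, 584 and 844 CPM against 156, 75.7 and 151 CPM (2.41 ± 0.16, edgeR adjusted p = 2.52e-49). Stat2 stood at 96.4, 84.4 and 106 CPM against 33.5, 23 and 16.9 CPM (1.74 ± 0.20), and Irf9 at 109, 96.2 and 92.3 CPM against 70.9, 52.6 and 55.9 CPM (0.72 ± 0.17, edgeR adjusted p = 6.83e-04). None of these 3 overlapped between the groups.

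Irf5, used mainly by myeloid and B cells, differed by 1.28 ± 0.20, and missed the threshold without cells that held UMIs of other lineages (adjusted p = 0.0661). Irf1, a target of interferon gamma, stood at 409, 282 and 198 CPM against 296, 240 and 224 CPM (0.27 ± 0.16, edgeR adjusted p = 0.496). Irf8, a factor of myeloid and B cells, stood at 253, 174 and 0 CPM against 254, 181 and 102 CPM (edgeR adjusted p = 0.918), and was lower without cells that held UMIs of other lineages (-0.88, adjusted p = 1.91e-04).

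Receptors and their kinases were near the median of all genes. Of 8 tested, 1 was higher and 0 lower, with a median log2 difference of 0.00. Ifnar1 stood at 183, 116 and 92.3 CPM against 146, 105 and 117 CPM (0.19 ± 0.17, edgeR adjusted p = 0.748), and Ifnar2 at 148, 130 and 92.3 CPM against 126, 145 and 122 CPM (0.02 ± 0.17). Ifngr1 stood at 927, 979 and 1055 CPM against 1039, 944 and 1433 CPM (-0.16 ± 0.14). The 1 that passed was Ifngr2, at 77.8, 35.4 and 39.6 CPM against 29.6, 21.6 and 13.1 CPM (1.19 ± 0.23, edgeR adjusted p = 7.56e-06), and it lost the call without library 1 (adjusted p = 0.837). Of the 6 negative regulators, among them Socs1 and Socs3, 0 passed in the edgeR fit, with a median of 0.03.

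**Figure D3:**
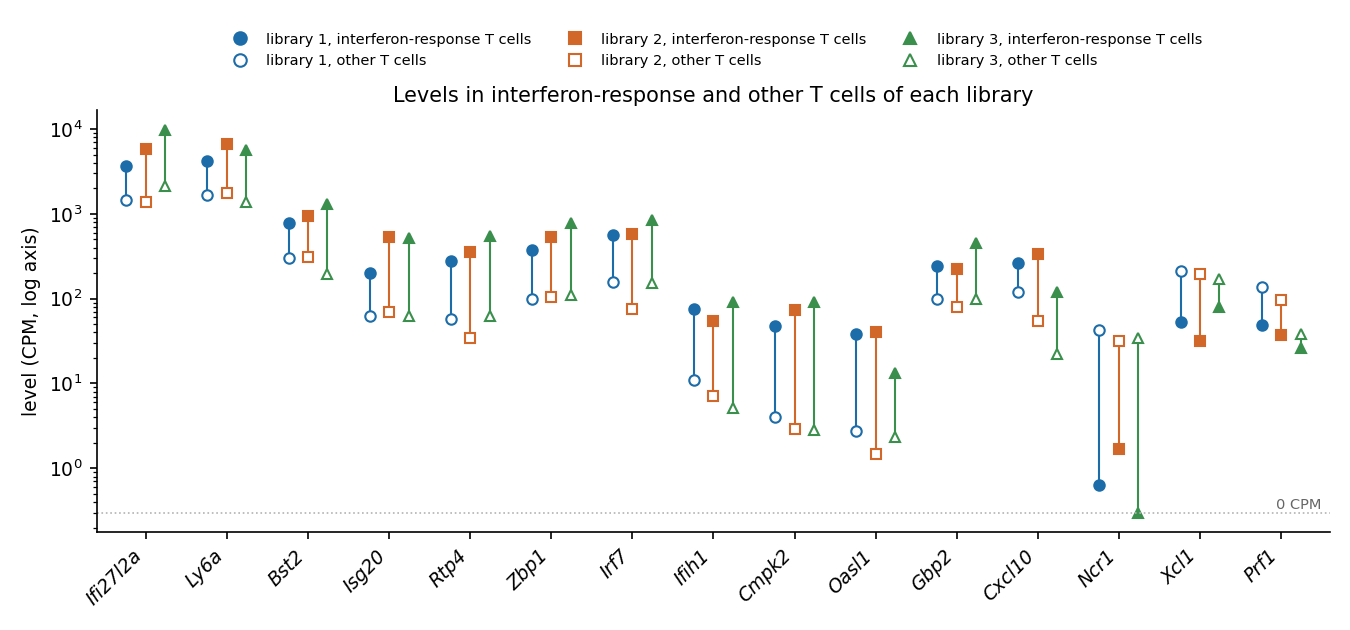
Level of 15 genes in CPM (vertical log axis) in interferon-response T cells (filled) and other T cells (open) of each library, joined by a line, with values of 0 drawn on the dotted line. The first 12 genes, from the effectors to Cxcl10, lay higher in interferon-response cells in every library, and Ncr1, Xcl1 and Prf1 lay lower.

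Type I interferon was hardly read in these cells. UMIs of 18 type I interferon genes numbered 155 in all cells of library 1, 5 in library 2 and 0 in library 3. Interferon-response T cells held 35, 0 and 0 of them. Of the 35, 32 were in 1 cell of 16036 UMIs, with 35 UMIs of CD3 genes and 2 of Siglech, a marker of plasmacytoid dendritic cells, and the other 3 in 1 cell with 9 Siglech UMIs. Another 107 of the 155 were in 1 cell with no CD3 UMI and 9 of Siglech. The type III genes Ifnl2 and Ifnl3 had 128 and 23 UMIs in library 1 and none in interferon-response cells.

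Ifng, the gene of interferon gamma, was the 1 ligand gene with enough counts to test. It stood at 75.2, 228 and 92.3 CPM in interferon-response T cells and at 124, 179 and 156 CPM in other T cells (-0.24 ± 0.17, edgeR adjusted p = 0.627), and the groups overlapped. Within CD4 cells alone, in the fit described below, Ifng was lower, at 39.0 and 158 CPM (libraries 1 and 2) against 183 and 239 CPM (-1.45 ± 0.29, edgeR adjusted p = 0.00233), and within CD8 cells it did not pass (0.34 ± 0.23). The difference between the lineages was 1.79 ± 0.37 and missed the threshold (edgeR adjusted p = 0.0789). With cells at 1000 UMIs, 13 of 177, 12 of 127 and 2 of 28 interferon-response cells had an Ifng UMI, which is 7.34%, 9.45% and 7.14%, against 9.74%, 11.6% and 7.62% of other T cells and 0.452%, 0% and 0% of B cells.

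Targets that respond strongly to interferon gamma were higher as well. Of 20 tested, 19 were higher and 0 lower, at a median of 1.34. Irgm1, a GTPase that defends against bacteria inside cells, stood at 159, 165 and 277 CPM against 55.3, 41.3 and 31.0 CPM (1.91 ± 0.16, edgeR adjusted p = 7.69e-30), and the guanylate-binding protein Gbp2 at 242, 221 and 448 CPM against 99.3, 80.8 and 100 CPM (1.52 ± 0.16). Tgtp1, of the same family as Irgm1 and a close copy of Tgtp2, differed by 2.30 ± 0.34. The 1 target that did not pass was Gbp8 (0.22, adjusted p = 0.809). The count of 19 fell to 9 with no replicate block and to 8 of 16 tested without cells of the wider list of other lineages.

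Cxcl10, a chemokine that draws Cxcr3-bearing T cells, stood at 265, 337 and 119 CPM against 120, 55.0 and 22.1 CPM (1.88 ± 0.17, edgeR adjusted p = 1.40e-26), and 56, 40 and 6 interferon-response cells held a UMI. Its interferon-response level in library 3 lay just under the other T cells of library 1. Cxcl9, its relative, stood at 384, 116 and 0 CPM against 50.4, 35.4 and 4.22 CPM (2.42 ± 0.18, edgeR adjusted p = 3.06e-39). Only 18, 8 and 0 interferon-response cells carried its UMIs, and 1 cell held 203 of the 598 in library 1.

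Genes of antigen presentation by MHC class I rose in part. Of 18 tested, 9 were higher and 0 lower, with a median of 0.43. H2-T22, a nonclassical class I molecule, stood at 293, 516 and 594 CPM against 207, 237 and 221 CPM (0.95 ± 0.16, edgeR adjusted p = 5.04e-08). The immunoproteasome subunits Psmb10 and Psmb8 differed by 0.89 ± 0.16 and 0.66 ± 0.14, and the peptide transporter Tap1 by 0.72 ± 0.16.

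The class I chains H2-D1 and B2m did not pass. H2-D1 stood at 5100, 4670 and 4168 CPM against 5021, 3898 and 4154 CPM (0.10 ± 0.12), and B2m at 3102, 2983 and 2875 CPM against 2474, 2407 and 2441 CPM (0.29 ± 0.12, edgeR adjusted p = 0.178). The count of 9 fell to 0 without library 2, to 5 without library 1, to 0 with no replicate block and to 1 without cells of the wider list of other lineages.

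**Figure D4:**
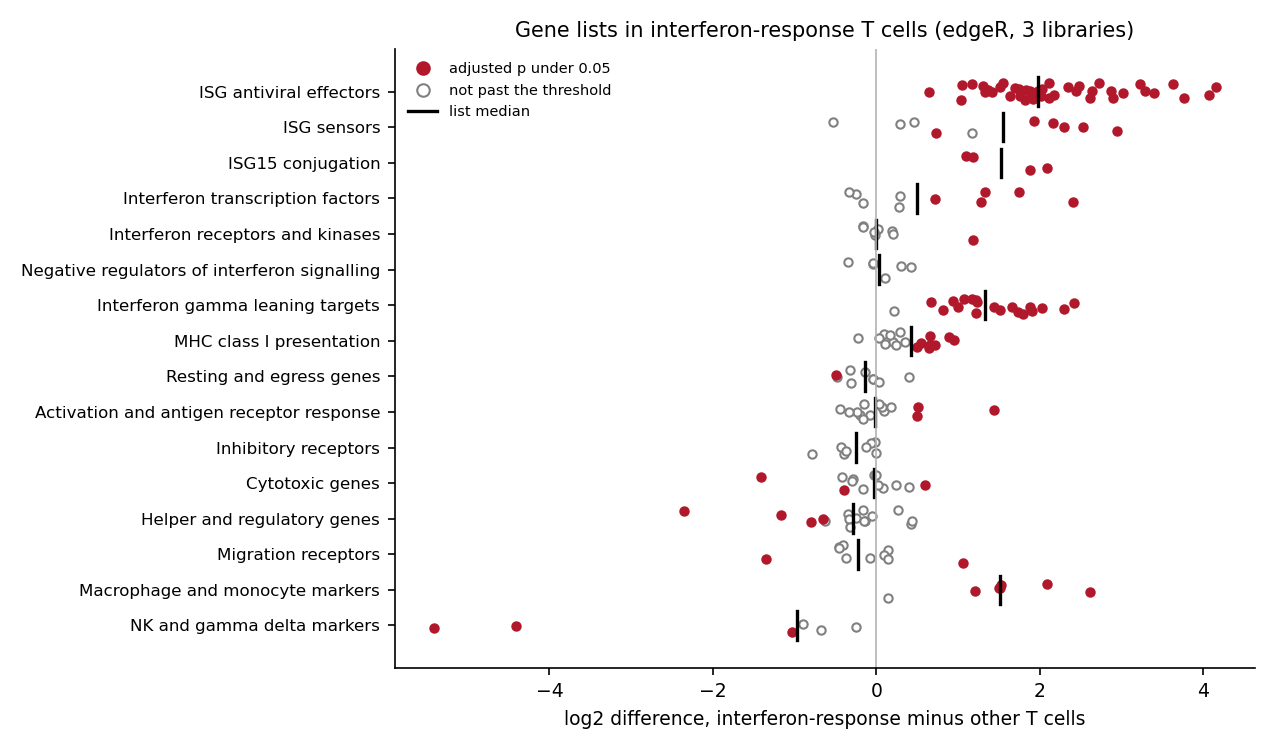
Log2 difference between interferon-response and other T cells (horizontal axis) of each tested gene in 16 lists (rows), filled where the edgeR adjusted p was under 0.05, with a bar at each list's median. All 43 effectors lay to the right of 0, the medians of receptors and negative regulators lay at 0.00 and 0.03, and Ncr1 and Klrb1c lay farthest to the left.

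Promoter letters were counted for the same genes. Of the 515 genes called higher, 413 had a promoter entry and 54 (13.1%) held GAAANNGAAA, against 195 of 6780 genes not called (2.88%) and 2 of 74 called lower (2.70%). TTCNNNGAA was held by 43 of the 413 (10.4%), by 467 of the 6780 (6.89%) and by 6 of the 74 (8.11%). Among effectors tested, 16 of 36 with an entry held the first motif, and among the gamma-leaning targets 10 of 13 held the first and 7 of 13 the second. These counts describe letters and say nothing of binding.

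Among genes outside the lists that met the rule for naming, the largest differences included further interferon-inducible genes. In all, 147 higher and 47 lower genes qualified. The 10 largest higher ones included Ifi202b (3.02 ± 0.27), Ifi214 (2.99 ± 0.20) and Ifi208 (2.31 ± 0.16), DNA-sensor relatives that lie in 1 multigene family and may share reads. Ifi214 stood at 76.5, 113 and 382 CPM against 21.4, 8.35 and 15.5 CPM. Parp12, an ADP-ribosyltransferase (2.79 ± 0.29), and Phf11c, of a family with close copies (2.12 ± 0.25), were also among them.

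The other 5 were Mgl2, Ms4a4c, Ly6c1, Cd40 and Cd300c2, of which Mgl2 and Cd300c2 are known from myeloid cells and Cd40 from antigen-presenting cells. Mgl2 differed by 2.72 ± 0.41, but 1 cell held all 12 of its UMIs in library 3. Ly6c1 differed by 2.62 ± 0.20 and by 0.59 without cells that held UMIs of other lineages (edgeR adjusted p = 0.811). Ms4a4c, at 237, 154 and 39.6 CPM against 36.4, 22.7 and 12.7 CPM (2.68 ± 0.17), kept its call in that fit and in the one with the wider list. Cd40 and Cd300c2 differed by 2.18 ± 0.24 and 2.12 ± 0.21. The rule for naming, which asks for the same direction in each library and a minimum level, left out other large calls. Among them, Apoc1, Apoc2, Clec4e, Cfb, Ccl2 and Chil1 were higher by 3.23, 3.13, 3.09, 2.99, 2.98 and 2.89. The MHC class II genes H2-Eb1, H2-Aa and H2-Ab1 were called higher too, by 1.92, 1.85 and 1.82, and Cd74 by 1.67. The named genes therefore do not stand for all higher calls.

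Of 6 NK and gamma delta markers tested, 3 were lower and 0 higher, beside 1.26% lower over all genes tested. The 3 were the NK genes Ncr1, Klrb1c and Klre1. Ncr1, the activating receptor NKp46, stood at 0.643, 1.69 and 0 CPM in interferon-response T cells, 2 UMIs in all, and at 43.0, 31.7 and 34.7 CPM in other T cells (edgeR adjusted p = 7.96e-20). Over the 3 libraries together the ratio of interferon-response to other T cells was 0.0238, with an exact 95% counting interval of 0.00287 to 0.0861. Klrb1c, the NK1.1 receptor, was at 1, 0 and 0 UMIs. Klra4 and Klra1, Ly49 receptors that are close copies of each other, differed by -2.71 ± 0.23 and -1.39 ± 0.24, with Klra4 at 29.6, 1.69 and 0 CPM against 153, 54.2 and 181 CPM.

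Xcl1, a chemokine for cross-presenting dendritic cells, stood at 52.7, 32.1 and 79.1 CPM against 212, 197 and 169 CPM (-2.12 ± 0.20, edgeR adjusted p = 3.90e-24), with no overlap. As deposited, 13.5%, 3.13% and 10.3% of interferon-response cells held a UMI of Xcl1, against 12.6%, 8.43% and 5.51% of other T cells. Single other T cells held up to 257, 197 and 59 of its UMIs. Spp1, which makes osteopontin, differed by -2.15 ± 0.27. The remaining named lower genes were Nrgn, Nrn1, Dusp14, Tnfsf8, Podnl1 and Serpinb6b, at -1.58, -1.47, -1.42, -1.02, -0.91 and -0.82. As for the higher calls, the rule for naming left out other large lower calls. Among them, Klra7, Klra8, Trdv4, Cd163l1 and Trdv1 differed by -3.99, -3.04, -2.39, -1.98 and -1.89.

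Cytotoxic genes did not move together. Of 13 tested, 1 was higher and 2 lower, at a median of -0.03. Prf1, the pore-forming protein of killer cells, stood at 49.5, 37.1 and 26.4 CPM against 136, 97.5 and 38.5 CPM (-1.41 ± 0.20, edgeR adjusted p = 5.49e-11), and Nkg7 differed by -0.40 ± 0.13 (adjusted p = 0.0438). As deposited, a Prf1 UMI was found in 21.3%, 10.9% and 6.90% of interferon-response cells and in 23.4%, 10.9% and 4.28% of other T cells. The library 3 value of interferon-response cells is 2 UMIs. Gzmb, granzyme B, passed as higher (0.60 ± 0.15, edgeR adjusted p = 0.00152), but stood at 244, 639 and 1794 CPM against 299, 570 and 385 CPM, and 71 of the 136 UMIs in library 3 were in 1 cell. Without library 3 its log2 difference was -0.07. With cells thinned to 1000 UMIs, a Gzmb UMI was found in 14.7%, 23.6% and 32.1% of interferon-response cells and in 13.1%, 11.1% and 12.0% of other T cells, against 0.452%, 0% and 0% of B cells.

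Helper and regulatory genes gave 0 higher and 4 lower of 16 tested, at a median of -0.28. Il17a stood at 10.9, 30.4 and 0 CPM against 80.8, 99.2 and 5.63 CPM (-2.35 ± 0.25, edgeR adjusted p = 8.30e-19), carried by 2, 1 and 0 interferon-response cells. Il21, the helper cytokine, stood at 7.07, 18.6 and 0 CPM against 17.9, 34.9 and 14.1 CPM (-1.17 ± 0.35, edgeR adjusted p = 0.0147). As deposited, 9, 5 and 0 interferon-response cells held its 11, 11 and 0 UMIs, which is 5.06%, 3.91% and 0% of them. In other T cells the shares were 4.69%, 5.31% and 1.57%. Il10 differed by -0.79 ± 0.21 and the factor Tbx21 by -0.65 ± 0.19. Il21, Il10 and Tbx21 did not pass without cells that held UMIs of other lineages (adjusted p = 0.651, 0.708 and 0.527), and Il17a did (adjusted p = 2.18e-04).

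Some genes of resting and activated T cells passed, beside shares of 5.63% higher and 1.26% lower over all genes tested. Of 9 resting and egress genes 1 was lower, the lymph node homing receptor Ccr7, at 181, 118 and 554 CPM against 221, 244 and 598 CPM (-0.49 ± 0.16, edgeR adjusted p = 0.0365). Of 14 activation genes 3 were higher, Cd69, Egr1 and Egr3, at 0.49 ± 0.17, 0.52 ± 0.17 and 1.44 ± 0.46. Egr3 had UMIs in 6, 6 and 0 interferon-response cells, and 1 cell held 11 of its 21 in library 1. Of 8 inhibitory receptors 0 passed in the edgeR fit. Of 10 migration receptors Cx3cr1 was higher (1.06 ± 0.29) and Itga1 lower (-1.35 ± 0.31). Of these 6 genes, only Cd69 and Itga1 also passed without cells that held UMIs of other lineages, where Egr3 and Cx3cr1 had too few counts to be tested. Of 76 ribosomal protein genes 0 passed, at a median of -0.07.

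Interferon-response T cells came from both lineages. In all, 100 were CD4 cells (a Cd4 UMI and none of Cd8a or Cd8b1), 119 were CD8 cells (the reverse), 29 held UMIs of both and 87 of neither. The CD8 share of assigned cells was 54.3% (exact 95% interval 45.3 to 63.2), 53.2% (41.5 to 64.7) and 60.0% (32.3 to 83.7) in libraries 1 to 3, against 51.9%, 47.9% and 55.2% of other T cells. The mean difference was 4.21 percentage points ± 1.56 (SD, n = 3 libraries), higher in 3 of 3, with a two-sided exact permutation p of 0.25, the smallest that 8 arrangements allow. When the rule and the lineages were read after thinning to 1000 UMIs, which left 25, 22 and 4 assigned interferon-response cells, the difference was -3.79 points, so no direction can be read.

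UMIs of regulatory and gamma delta T cell genes were found among them. Foxp3, which defines regulatory T cells, stood at 109, 135 and 39.6 CPM against 98.4, 89.4 and 79.8 CPM (0.26 ± 0.17, edgeR adjusted p = 0.549). With cells thinned to 1000 UMIs it had a UMI in 10.7%, 9.45% and 3.57% of interferon-response cells, in 10.5%, 7.73% and 6.14% of other T cells and in 0.452%, 0% and 0% of B cells. Trdc, of the gamma delta receptor, had one in 2.26%, 2.36% and 3.57% against 2.22%, 3.77% and 1.80%, and in 0% of B cells in each library. By the same limit of 3 counts, a count of 0 among the 221, 368 and 73 B cells allows up to 1.36%, 0.815% and 4.11%. In the main test the delta chain V genes Trdv4 and Trdv1 were lower in interferon-response cells (edgeR adjusted p = 1.54e-13 and 0.00162).

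The leading V gene of the T cell receptor beta chain was the same in interferon-response and other T cells of each library. Trbv19 was the most frequent V gene in library 1, in 52 of 153 interferon-response cells with a Trbv UMI (34.0%, exact 95% interval 26.5 to 42.1) and in 31.2% of other T cells. Trbv13-2 led in libraries 2 and 3, in 25 of 106 (23.6%, 15.9 to 32.8) and 4 of 20 cells (20.0%, 5.73 to 43.7), against 22.6% and 22.2%. In the main test of UMI sums, however, Trbv13-2 was lower in interferon-response cells (-0.74 ± 0.18, edgeR adjusted p = 7.16e-04). Trbv13-1 was lower as well (-0.75 ± 0.18, edgeR adjusted p = 6.94e-04). In all, 21, 20 and 14 Trbv genes were detected in the interferon-response cells.

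Whether the state went with the same genes in both lineages was asked in 1 fit over sums per library, state and lineage. Library 3 had only 6 CD4 and 9 CD8 interferon-response cells, which were left out, so the differences rest on libraries 1 and 2. Of 7229 genes tested, 614 (8.49%) passed within CD4 cells, 497 higher (6.88%) and 117 lower (1.62%). Within CD8 cells 217 passed, 195 higher (2.70%) and 22 lower (0.304%). Of these higher calls 166 were shared, 33.4% of the CD4 calls and 85.1% of the CD8 calls, and both share the libraries.

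Effectors rose in both lineages, 40 of 42 within CD4 and 37 of 42 within CD8 cells, at medians of 1.98 and 1.88. Of the gamma-leaning targets 15 of 19 were higher within each lineage, and of the MHC class I genes 10 of 18 within CD4 and 3 of 18 within CD8 cells. The difference between lineages itself passed for 3 genes (0.0415% of those tested), Cxcl9, Fcer1g and Napsa, none of them an antiviral effector, and 582 had an unadjusted p under 0.05.

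All 3 were larger within CD4 cells. Within CD4 cells, Cxcl9 stood at 804 and 240 CPM with the interferon response (libraries 1 and 2) against 27.1 and 32.7 CPM without it, and at 143 and 26.6 CPM against 52.2 and 24.1 CPM in CD8 cells. Its log2 difference was 4.05 ± 0.30 within CD4 and 1.30 ± 0.39 within CD8 cells, and the difference between them was -2.75 ± 0.46 (edgeR adjusted p = 0.0440). Fcer1g, a signalling chain of myeloid and NK cells, stood at 664 and 742 CPM against 149 and 230 CPM in CD4 cells and at 333 and 282 CPM against 194 and 301 CPM in CD8 cells (-1.50 ± 0.23, edgeR adjusted p = 0.0281). Napsa, an aspartic protease, stood at 395 and 437 CPM against 78.6 and 132 CPM in CD4 cells and at 143 and 197 CPM against 100 and 118 CPM in CD8 cells (-1.39 ± 0.24, edgeR adjusted p = 0.0440).

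These 3 calls rest on few libraries and on the design. None of them passed with no replicate block, with at least 4 rule genes or with a reference of matched depth, and Napsa lost the call without library 1 (-0.92, edgeR adjusted p = 0.358), where each lineage had 1 interferon-response library, assumed to vary like the other groups. Without cells that held UMIs of other lineages, Fcer1g and Napsa passed (edgeR adjusted p = 4.11e-09 and 1.65e-06) and Cxcl9 did not (0.0556).

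**Figure D5:**
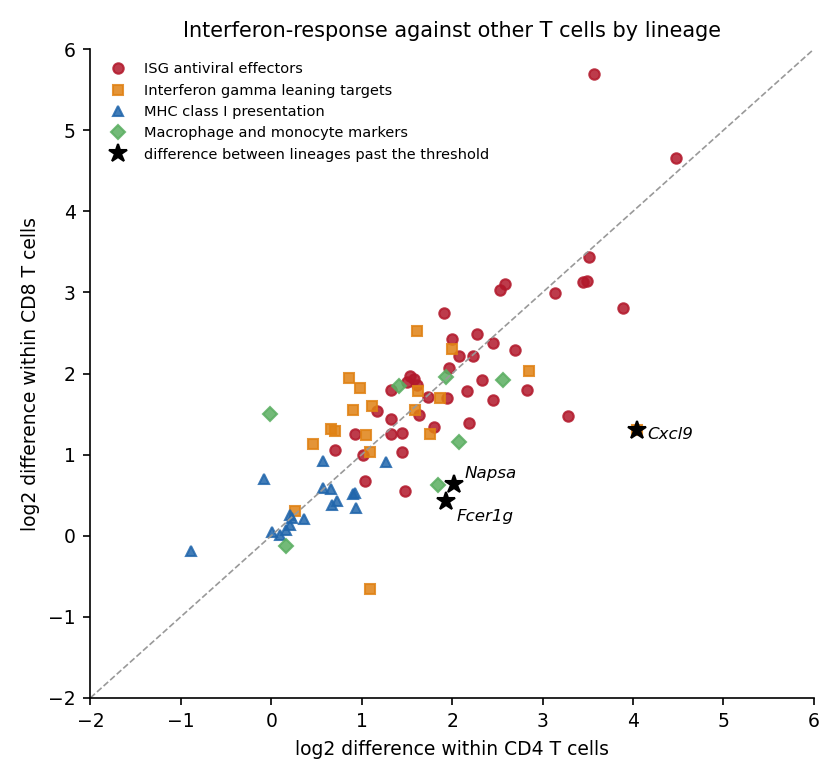
Log2 difference between interferon-response and other T cells within CD4 cells (horizontal axis) and within CD8 cells (vertical axis) for genes of 4 lists, with equal differences on the dashed line. Most effectors lay near the line, and the 3 starred genes, whose difference between lineages passed the test, lay below it, with Cxcl9 at 4.05 and 1.30.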

How the data were processed

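Single-cell RNA sequencing (10x, 5′ chemistry) was performed on sorted CD45+ sciatic nerve cells in 3 libraries of 1 group. The authors deposited unnormalised counts, 1 matrix of UMIs by gene and cell barcode for each library, aligned to mm10 with Cell Ranger (5.0.1 for library 1, 6.1.2 for libraries 2 and 3, per the submitters' processing notes), for 32285 gene rows. Library 1 was used without a gene list of its own and took the row order of the others (Spearman correlation across genes of 0.950 with library 2 and 0.929 with library 3, against 0.362 and 0.321 after a shift by 1 row). Cells were kept up to 5000 genes and up to 20% mitochondrial UMIs, which left 13637 of 13770 cells. The shallowest cell had 501 UMIs. No doublet caller was run.

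The libraries held 22983991, 55120460 and 3399733 UMIs, and interferon-response T cells held 1483973, 644385 and 76665 of them, so library 3 gives the least precise values. UMIs were summed per library and state. They were tested with edgeR 4.0.16 in R 4.3.3 (quasi-likelihood, TMM, low-count filter, library as a block because both states come from the same mice, Benjamini-Hochberg over all genes tested, threshold 0.05). Standard errors were taken from the log2 difference and its F value. They use a spread estimated partly across genes, so they do not measure how far apart the 3 library values of a gene lay. Since membership was read from the same cells, adjusted p values describe differences between groups so chosen. They do not measure how alike the 3 libraries were, and genes such as Cxcl9 and Gzmb passed without the same direction in each. Sums of fewer than 10 cells were left out of the CD4 and CD8 fit. In data simulated for the main comparison (8947 genes), 85.6% of 97 genes changed by 2 on the log2 scale and 20% of 100 changed by 1 were recovered. In data simulated for the difference between lineages (6935 genes) the same shares were 33.7% and 2.08%. False calls numbered 5 and 2 in these simulations. Both gave every gene and library the same spread between libraries, so the recovered shares need not hold for these data. Python 3.11.15 with scipy 1.17.1 gave the exact intervals and the permutation test.

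The members and gene lists were chosen with earlier results of these data known. Genes were named as the 2 to 6 largest called differences of a list and members of interest to the study, as the 10 largest in each direction outside the lists that had the same direction in 3 of 3 libraries and a mean of at least 50 CPM, as the genes called between lineages, and as the rule genes. Named genes that did not pass were chosen for their role. Some further called genes, such as Apoc1 and Trbv13-2, were given beside the results they bear on. Alternatives were DESeq2 1.42.0, RLE size factors, no low-count filter, no replicate block, each library left out, at least 4 rule genes, other reference cells, thinning to 1000 UMIs, a minimum of 300 UMIs and leaving out cells with UMIs of other lineages. The 2 mice of library 3 counted as 1 replicate. A few genes are not reported here.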

Additional observations from a re-analysis of the deposited data

Results flagged for a closer look

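Of the results tested for a difference between CD4 and CD8 cells, 3 passed and call for a closer look. The log2 difference between interferon-response and other T cells, taken as CD8 minus CD4, was -2.75 for Cxcl9, -1.50 for Fcer1g and -1.39 for Napsa, so each was larger within CD4 cells. Cxcl9 rested on few cells. In library 1, 6 CD4 and 2 CD8 interferon-response cells held a UMI of it, and 1 CD4 cell held 203 of 454 UMIs. In library 2, 3 CD4 cells and 1 CD8 cell did, and 1 CD4 cell held 40 of 44. Groups of 3 libraries are too small for a test of single outlying libraries.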

How the results depend on the processing

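The count of genes that differed between interferon-response and other T cells was 630. It was 272 with DESeq2, 109 with no replicate block (629 at an unadjusted p under 0.05), 341 with a reference of matched depth, 241 with the rule read after thinning to 1000 UMIs, 333 without cells that held UMIs of other lineages and 104 with the wider list of other lineages, an alternative chosen after seeing the data. Leaving out 1 library gave 264 to 716, with 264 without library 1 and 311 without library 2. The library was kept as the block because both states came from the same mice. Within CD4 cells the 614 calls became 403 with DESeq2, 132 with no replicate block, 91 with matched depth, 112 after thinning, 383 without cells of other lineages and 349 to 603 with 1 library left out. Within CD8 cells the 217 calls became 48 with no replicate block, 120, 107 and 123 under matched depth, thinning and the loss of cells of other lineages, and 180 to 237 with 1 library left out. The 3 calls between lineages became 12 with DESeq2, 82 with no low-count filter, 0 with no replicate block (150 at an unadjusted p under 0.05), 0 with at least 4 rule genes (499), 0 with matched depth (313), 10 against T cells with 0 rule genes, 109 without cells of other lineages and 12 to 74 with 1 library left out. Without library 1 or 2, each lineage had 1 interferon-response library, assumed to vary like the other groups. Their fit with the wider list could not be made. The cause of these changes was not tested.

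The CD8 share difference turned to -3.79 points after thinning. The mean share of T cells that met the rule, 4.45%, was 1.52% when the whole rule was read after thinning. Of the 80 named called genes that were followed across the alternatives, 28 stayed called in every alternative in which they were tested. With DESeq2 57 did, and with no replicate block 37. Directions turned for Ifitm2 (-1.88), Myd88 (-0.17) and Napsa (-0.53) with the wider list, for Gzmb without library 3 (its range with 1 library left out was -0.069 to 1.13), for Apoe (-0.029) and Napsa (-0.22) after thinning and for Xcr1 (-0.016) with matched depth. The difference of Napsa between lineages was 0.34 after thinning. Library 3, with 29 interferon-response cells, limits what can be seen of genes below about 13.2 CPM there.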
